A study of Drosophila melanogaster with 4 samples.

Results

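MicroRNA tails were compared between S2 cells carrying NbrCTD and S2 cells carrying Nbr(wt), with 1 small RNA library for each. Both lines lacked the endogenous nbr gene. The genotypes were Act5C>NbrCTD; nbrKO and Act5C>Nbr(wt); nbrKO, and the libraries were 2 of the 4 in the study. S2 cells are a Drosophila melanogaster line of embryonic origin. In both lines nbr had been disrupted with CRISPR-Cas9, and the construct was then introduced by stable transfection under the Act5C driver, which is active in most cell types. The titles call the constructs overexpressed. The labels do not spell out CTD, and the amount of either protein and whether a line was 1 clone were not given in the sources used here. The deposited table holds 495 rows, each for 1 start of a miRNA arm (a 5′ isoform), and 293 of them had reads in both libraries. Joining copies of an arm with the same start left 283 arms, and 117 of these had at least 100 reads in each library and entered the comparison of tails. These 117 held 99.98% of the reads of the 283 arms in both libraries.

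A miRNA is cut from a hairpin as a duplex of 2 arms. The guide arm stays bound to an Argonaute protein, and the passenger arm is mostly discarded. In flies, Nibbler (Nbr) is a 3′-to-5′ exonuclease that trims the 3′ end of some Argonaute-bound miRNAs, of which miR-34-5p is the classic case. Other enzymes add untemplated bases, called a tail, to the same end, so the 3′ end of a miRNA can be shortened by one activity and lengthened by another.

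The first 7 bases of the arms that the results turn on were as follows, with base 1 in lower case and bases 2 to 7, the part of the seed that pairs with target mRNAs, in capitals. They are shown because the 5′ sequence sets the target family of an arm, and the largest tail differences fell in several different families. The table gives no full mature sequence. The first 4 arms share 1 start, which matches the K-box motif, and miR-11-3p differs from it at base 1. The next 2 arms share a start with each other. The remaining arms each have a start that no other arm shown here has, though miR-317-3p shares its start with miR-4943-3p, which is not shown.
miR-2c-3p: tATCACA
miR-2b-3p: tATCACA
miR-2a-1-3p: tATCACA
miR-13b-3p: tATCACA
miR-11-3p: cATCACA
miR-998-3p: tAGCACC
miR-995-3p: tAGCACC
miR-34-5p: tGGCAGT
miR-305-5p: aTTGTAC
miR-317-3p: tGAACAC
miR-263a-5p: aATGGCA
miR-980-3p: tAGCTGC
miR-1007-3p: tAAGCTC
miR-1005-3p: tCTGGAA
bantam-3p: tGAGATC

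The library totals worked out to 26500155 reads with NbrCTD and 32488012 reads with Nbr(wt), of which 14468679 and 19651434 lay in the 283 arms. The same miRNAs dominated both libraries. The top 12 arms held 81.4% of the arms' reads with NbrCTD and 84.7% with Nbr(wt), and bantam-3p alone held 30.6% with NbrCTD and 36.0% with Nbr(wt). All 10 miRNAs listed as common in S2 cells were present at 2056 miRNA RPM or more with NbrCTD and at 2080 miRNA RPM or more with Nbr(wt), where miRNA RPM is RPM taken over the reads of the 283 arms in place of all reads of the library. Of 21 miRNAs typical of muscle, neurons, early embryo, gonads or other tissue, 16 had reads in both libraries. They summed to 156 miRNA RPM with NbrCTD and 171 miRNA RPM with Nbr(wt), and 2 of them (miR-318-3p and miR-6-3p) reached 100 reads in both.

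Tailed reads made up a larger part of the miRNA pool with NbrCTD than with Nbr(wt). The tailed share of an arm is its tailed reads (the table's PM column) divided by its genome-matching and tailed reads together (GM plus PM). The table does not spell out these column names, and this reading of them is used throughout. Over all 283 arms it was 2.62% with NbrCTD (95% exact interval 2.61 to 2.63) and 1.83% with Nbr(wt) (1.83 to 1.84). Without bantam-3p it was 3.49% with NbrCTD and 2.49% with Nbr(wt). There was no replicate of either line. No test between the lines was therefore possible, and every interval covers counting error only. Libraries prepared from the same line could differ by more than these intervals.

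Among the 117 arms, the tailed share was above that of Nbr(wt) in 95 and below it in 22. The median arm had 2.69% with NbrCTD and 2.04% with Nbr(wt), and the median difference was 0.503 percentage points. On the odds scale the median ratio, NbrCTD over Nbr(wt), was 1.27 (log2 0.34, quartiles 0.09 and 0.63). An arm was called different where the 95% exact (Clopper-Pearson) intervals of the libraries did not overlap. By that rule 45 arms (38.5%) were higher with NbrCTD, 1 arm (0.855%) was lower, and 71 overlapped. The 45 differences ranged from 0.163 to 11.4 percentage points with a median of 1.10, and 8 of the 45 reached a log2 odds ratio of 1. The order of the arms was much alike in both libraries, with a Spearman rho of 0.87 over 117 arms that share libraries and depth.

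**Figure D1:**
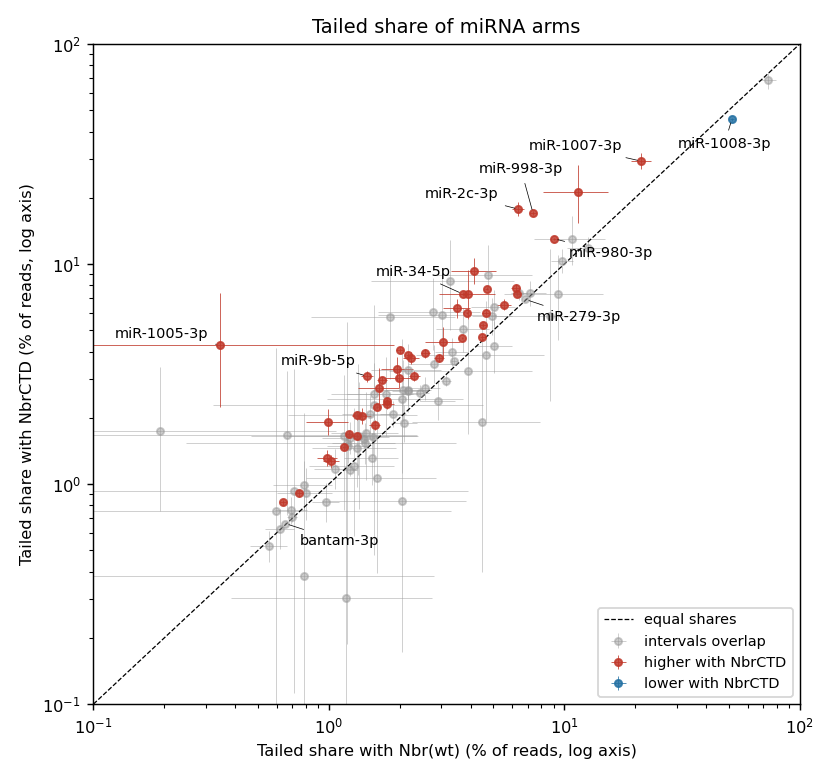
Tailed share of each measured arm with NbrCTD (vertical log axis, % of reads) against Nbr(wt) (horizontal log axis, % of reads), with 95% exact intervals as bars. Of 117 arms, 95 lie above the diagonal; miR-4943-3p, with 0 tailed reads with NbrCTD, cannot be drawn on a log axis.

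How many arms were called followed the number of reads. In arms averaging 100 to 1000 reads 2 of 29 were higher, at 1000 to 10000 reads 8 of 40 were higher and 1 was lower, at 10000 to 100000 reads 17 of 26 were higher, and above 100000 reads 18 of 22 were higher. The size of the difference did not follow depth in the same way. The median log2 odds ratio was 0.31, 0.30, 0.33 and 0.41 in these depth classes, and its Spearman rho with mean reads was 0.10 over 117 arms. All 22 arms above 100000 reads lay above the diagonal, including the 4 whose intervals overlapped.

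Guides among the most abundant arms differed in how much they were tailed and in whether the libraries parted. bantam-3p, a growth-promoting miRNA that blocks apoptosis, had a tailed share of 0.662% with NbrCTD (0.654 to 0.669) and 0.654% with Nbr(wt) (0.648 to 0.660), which overlapped. miR-14-3p, which restrains cell death and fat storage, had 2.24% with NbrCTD and 1.60% with Nbr(wt). miR-184-3p, needed in the female germline, had 4.60% with NbrCTD and 3.69% with Nbr(wt). Both of these were higher. miR-8-3p, which flies share with the vertebrate miR-200 group, had 6.004% with NbrCTD and 3.85% with Nbr(wt). Its tailed reads numbered 42864 with NbrCTD and 42089 with Nbr(wt), from arm totals of 713976 and 1092469 reads in libraries of unequal size. At a common miRNA total its tailed reads stood at 2963 miRNA RPM with NbrCTD and 2142 miRNA RPM with Nbr(wt). The arm as a whole stood at 49346 miRNA RPM with NbrCTD and 55592 miRNA RPM with Nbr(wt).

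Differences of under 1 percentage point were also called in deeply read arms. miR-282-5p had a tailed share of 0.828% with NbrCTD and 0.637% with Nbr(wt). In miR-276a-3p it was 0.908% with NbrCTD and 0.745% with Nbr(wt), and in miR-33-5p, whose host gene is SREBP, 1.69% with NbrCTD and 1.22% with Nbr(wt). Small as they are, these differences exceeded the counting error, since each arm had more than 100000 reads in each library. miR-11-3p comes from mir-11, which sits inside E2f1, a gene of the cell cycle, in an intron at 3R:21622497-21622571 (minus strand, BDGP6). Its tailed share was 3.85% (3.78 to 3.92) with NbrCTD and 2.17% (2.12 to 2.21) with Nbr(wt).

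The miRNAs reported in flies to be trimmed by Nbr formed the list with the largest median odds ratio among those described here. Of 10 listed, 7 were measured (too few reads fell on miR-100-5p, miR-10-5p and miR-3-3p). Of the 7, 5 were higher and none lower, beside 45 of 117 over all arms. The median log2 odds ratio was 0.96, beside 0.34 over all arms. These arms were also read-rich, with a median of 163148 reads against 6665 over all arms, and the part of depth in the number called was not tested.

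miR-34-5p, known in flies for protecting ageing neurons, had a tailed share of 7.32% (7.16 to 7.47) with NbrCTD and 3.70% (3.63 to 3.78) with Nbr(wt). Its tailed reads stood at 571 miRNA RPM with NbrCTD and 452 miRNA RPM with Nbr(wt). Its genome-matching reads stood at 7235 miRNA RPM with NbrCTD and 11771 miRNA RPM with Nbr(wt). The higher share of miR-34-5p thus combined more tailed reads and fewer untailed reads at a common miRNA total. mir-34 lies at 3R:10100936-10101034 (plus strand, BDGP6) in an exon of the non-coding gene lncRNA:CR43459.

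miR-305-5p, which acts in intestinal stem cells, had a tailed share of 4.06% (3.96 to 4.16) with NbrCTD and 2.00% (1.93 to 2.07) with Nbr(wt). In miR-317-3p the share was 7.72% (7.61 to 7.83) with NbrCTD and 4.68% (4.60 to 4.76) with Nbr(wt). miR-263a-5p, which protects sensory bristle cells, had 7.34% (5.63 to 9.36) of 804 reads tailed with NbrCTD and 3.90% (2.93 to 5.07) of 1359 reads with Nbr(wt). The untailed reads of miR-317-3p stood at 14965 miRNA RPM with NbrCTD and 11895 miRNA RPM with Nbr(wt). For miR-305-5p they stood at 10061 miRNA RPM with NbrCTD and 8706 miRNA RPM with Nbr(wt), a smaller fold than the median abundance fold of all arms, so its direction turns when levels are scaled to the median ratio.

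The fifth called member of the list was miR-11-3p, given above. Its 2 overlapping members were miR-7-5p and miR-31a-5p. miR-7-5p, which acts in photoreceptor differentiation, had a tailed share of 0.627% with NbrCTD and 0.618% with Nbr(wt). miR-31a-5p had 8.37% (5.04 to 12.9) of 215 reads tailed with NbrCTD and 3.27% (1.51 to 6.12) of 275 reads with Nbr(wt), a difference that was not detectable at this depth.

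**Figure D2:**
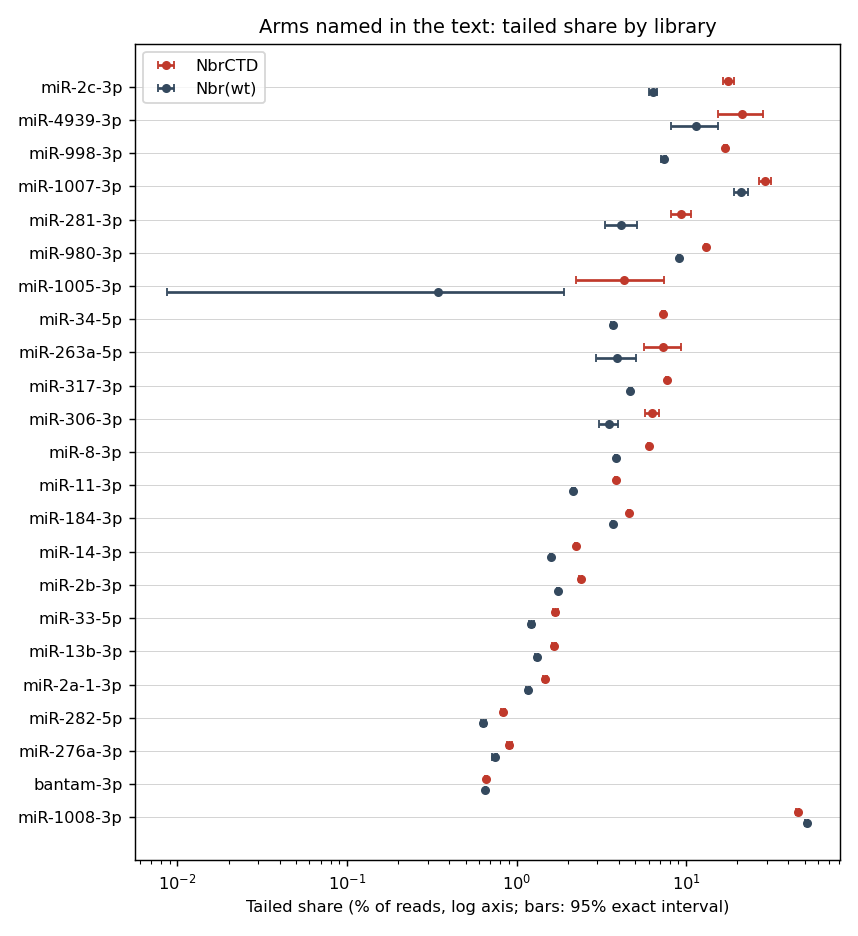
Tailed share (log axis, % of reads, bars 95% exact intervals) of the arms with the largest differences and of the most abundant arms, with NbrCTD above Nbr(wt) in each row. NbrCTD lies to the right except in miR-1008-3p; the intervals of bantam-3p overlap.

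The largest difference was in miR-2c-3p, of the miR-2 family, which targets proapoptotic genes in flies. Its tailed share was 17.8% (16.5 to 19.0) with NbrCTD and 6.38% (6.01 to 6.77) with Nbr(wt). The arm itself was scarcer with NbrCTD, at 251 miRNA RPM with NbrCTD and 813 miRNA RPM with Nbr(wt). Its tailed reads were 44.5 miRNA RPM with NbrCTD and 51.9 miRNA RPM with Nbr(wt), so that the untailed reads carried most of the difference in share, at 206 miRNA RPM with NbrCTD and 761 miRNA RPM with Nbr(wt). miR-2c-3p is uncertain in both readouts, because its deposited values are not whole reads and nearly identical miR-2 arms can share reads. mir-2c lies at 3R:15417744-15417845 (minus strand, BDGP6) in an exon of lncRNA:CR45911.

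miR-998-3p gave the largest difference among arms of more than 10000 reads. Its tailed share was 17.1% with NbrCTD (16.8 to 17.3) and 7.36% with Nbr(wt) (7.13 to 7.60). Tailed reads were 769 miRNA RPM with NbrCTD and 180 miRNA RPM with Nbr(wt), and untailed reads were 3743 miRNA RPM with NbrCTD and 2266 miRNA RPM with Nbr(wt). miR-998 is known in flies to raise EGFR signalling, and mir-998 lies at 3R:21621879-21622021 (minus strand, BDGP6) in an intron of E2f1, beside mir-11. miR-995-3p, which has the same first 7 bases as shown above, had a tailed share of 5.999% with NbrCTD and 4.63% with Nbr(wt). mir-995 is in an intron of Cdk2, at 3R:20735923-20736012 (plus strand, BDGP6).

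Further large differences came from arms of very different depth. miR-980-3p, with more than 100000 reads in each library, had a tailed share of 13.02% (12.9 to 13.2) with NbrCTD and 9.07% (8.93 to 9.21) with Nbr(wt). In miR-281-3p it was 9.31% (8.10 to 10.6) with NbrCTD and 4.15% (3.31 to 5.13) with Nbr(wt), and in miR-306-3p 6.31% (5.71 to 6.95) with NbrCTD and 3.49% (3.06 to 3.96) with Nbr(wt). miR-306-3p is a passenger arm. miR-281-3p was classed as one by its summed reads, but it and miR-281-5p had 2105 reads each with NbrCTD. With Nbr(wt) they had 1976 and 2453 reads. The shallowest called arm was miR-4939-3p, with 36 tailed of 169 reads with NbrCTD (21.3%, 15.4 to 28.2) and 37 tailed of 325 reads with Nbr(wt) (11.4%, 8.14 to 15.3). Its intervals were separated by a narrow margin.

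The K-box family, 8 arms that share ATCACA at bases 2 to 7, did not stand out in size. Of the 8, 5 were higher and none lower, beside 45 of 117 over all arms, and the median log2 odds ratio was 0.40, beside 0.34 over all arms. These arms were read-rich, with a median of 194307 reads against 6665 over all arms, and the part of depth in the number called was not tested. The called arms were miR-2c-3p and miR-11-3p, given above, with miR-2b-3p, miR-2a-1-3p and miR-13b-3p. miR-2b-3p had a tailed share of 2.39% with NbrCTD and 1.76% with Nbr(wt). In miR-13b-3p it was 1.66% with NbrCTD and 1.31% with Nbr(wt), and in miR-2a-1-3p 1.47% with NbrCTD and 1.16% with Nbr(wt). Arms with the same first 7 bases as miR-2c-3p thus differed from it in both the size of the tail share and the size of the difference. The deposited values of miR-2b-3p and miR-2a-1-3p, like those of miR-2c-3p, are not whole reads. The part of reads shared between miR-2 arms in these differences was not tested. The overlapping arms were miR-308-3p, miR-13a-3p and miR-6-3p, with 2.95%, 2.06% and 0.833% tailed with NbrCTD and 3.14%, 1.33% and 2.04% with Nbr(wt).

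Other arms with the same first 7 bases also parted. miR-996-3p and miR-279-3p both begin tGACTAG, and their genes lie side by side and are known to block the formation of carbon dioxide sensing neurons. miR-996-3p had a tailed share of 2.97% (2.87 to 3.07) with NbrCTD and 1.68% (1.60 to 1.77) with Nbr(wt), whereas miR-279-3p had 6.90% (6.79 to 7.02) with NbrCTD and 6.84% (6.73 to 6.95) with Nbr(wt). Likewise miR-9b-5p and miR-9c-5p both begin tCTTTGG. In miR-9b-5p the share was 3.09% with NbrCTD and 1.45% with Nbr(wt), and it was higher, while in miR-9c-5p it was 2.60% with NbrCTD and 2.45% with Nbr(wt), and the intervals overlapped.

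Mirtrons, whose hairpins are spliced introns rather than Drosha products and whose 3′ ends are known to be uridylated by Tailor, had the highest tailed shares of any list in both libraries. The median of the 9 measured mirtron arms (of 14 listed) was 7.77% with NbrCTD and 6.44% with Nbr(wt). Their median log2 odds ratio of 0.34 equalled that of all arms. Of the 9, 3 (33.3%) were higher and 1 lower, and 33.3% lies near the 38.5% higher over all arms. Mirtron arms had fewer reads, with a median of 1544 against 6665 over all arms, and the part of depth in the number called was not tested. miR-1007-3p, from an intron of Abca3 (X:21296385-21296449, minus strand, BDGP6), had a tailed share of 29.4% (27.0 to 31.8) with NbrCTD and 21.2% (19.2 to 23.3) with Nbr(wt).

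miR-1003-3p was higher at 7.77% with NbrCTD and 6.22% with Nbr(wt). miR-1005-3p was higher on few reads, at 12 tailed of 280 with NbrCTD (4.29%, 2.23 to 7.37) and 1 tailed of 291 with Nbr(wt) (0.344%, 0.0087 to 1.90). miR-1008-3p, the most heavily tailed mirtron, went the other way and was the 1 arm called lower, at 45.4% (44.5 to 46.3) with NbrCTD and 51.5% (50.3 to 52.6) with Nbr(wt). Both its tailed and its untailed reads were more abundant with NbrCTD. The tailed reads were 363 miRNA RPM with NbrCTD and 192 miRNA RPM with Nbr(wt), and the untailed reads were 436 miRNA RPM with NbrCTD and 181 miRNA RPM with Nbr(wt). mir-1008 lies at 2R:10885533-10885589 (plus strand, BDGP6) in an intron of CG18004.

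The 5 overlapping mirtron arms ranged widely too. Tailed shares were 7.40% with NbrCTD and 6.44% with Nbr(wt) in miR-1006-3p, and 10.3% with NbrCTD and 9.80% with Nbr(wt) in miR-1012-3p. In miR-1009-3p the share was 1.66% with NbrCTD and 1.16% with Nbr(wt), and in miR-1013-3p 5.77% with NbrCTD and 1.83% with Nbr(wt). The fifth, miR-1016-3p, is described with its abundance.

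miRNAs of a genomic cluster are usually cut from a shared transcript, and most clusters held both called and overlapping arms. The miR-277, miR-34 and miR-317 cluster on 3R had 5 of 6 arms higher and a median log2 odds ratio of 0.77. Its arms were read-rich, with a median of 64460 reads against 6665 over all arms, and the part of depth was not tested. Its arms miR-34-5p and miR-317-3p are also counted among the reported substrates. miR-277-3p, a regulator of branched-chain amino acid breakdown, had a tailed share of 2.05% with NbrCTD and 1.32% with Nbr(wt), and its passenger miR-277-5p 1.92% with NbrCTD and 0.988% with Nbr(wt). The passenger miR-34-3p had 3.75% with NbrCTD and 2.23% with Nbr(wt). The overlapping arm was miR-317-5p, with 0.990% with NbrCTD and 0.781% with Nbr(wt).

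Of the other clusters, that of miR-275 and miR-305 had 3 of 4 arms higher, and those of miR-279 with miR-996 and miR-11 with miR-998 each had 2 of 4. The cluster of miR-12, miR-283 and miR-304 had 2 of 6 arms higher, and that of miR-9c, miR-306, miR-79 and miR-9b had 3 of 8. Over all arms 38.5% were higher, and 2 of 6 and 3 of 8 lie near that share. No arm of the 3 measured from miR-92a and miR-92b was called. Median log2 odds ratios in these clusters ran from 0.31 around miR-12 to 0.55 around miR-279. Median reads ran from 1356 around miR-92a to 85956 around miR-275, and the part of depth in the numbers called was not tested. Neighbours could differ widely, as in the host gene E2f1, where miR-998-3p was higher by 9.69 points and miR-11-3p by 1.69 points.

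**Figure D3:**
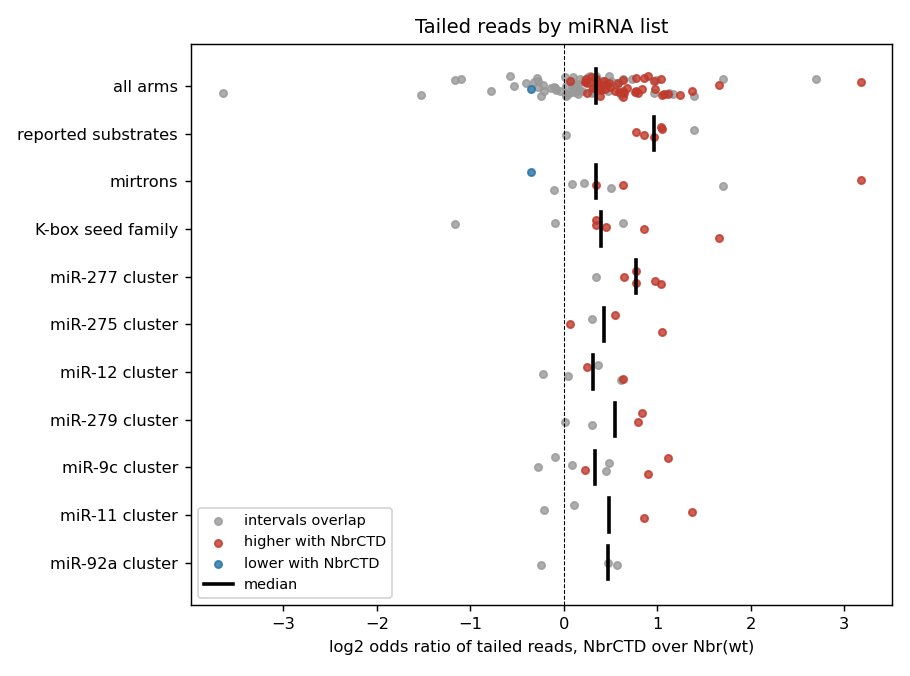
Log2 odds ratio of tailed reads, NbrCTD over Nbr(wt), for each measured arm by list, with bars at the medians. The median is 0.34 over all arms, 0.96 in the reported substrates, 0.77 in the miR-277 cluster and 0.34 in the mirtrons.

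Tails were more often called in guides than in passengers, and passengers had fewer reads. Among guides 32 of 67 were higher and 1 lower, and among passengers 12 of 47 were higher. The median log2 odds ratio was 0.34 in guides and 0.31 in passengers, and median reads were 17305 in guides and 4278 in passengers. In 42 precursors both arms were measured. Both arms were higher in 10 of these, the guide alone in 14 and the passenger alone in 0. Neither arm was called in 17 precursors, and in miR-1008 the guide was lower and the passenger overlapped. The guide had the larger difference in percentage points in 20 of the 42.

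The arms were also divided by side, length and host, to be read beside 45 of 117 (38.5%) higher over all arms. Of 3p arms 28 of 62 were higher and 1 lower, and of 5p arms 17 of 55 were higher, with median log2 odds ratios of 0.34 and 0.30. Arms with an annotated length of 21 nt or less had 9 of 19 higher and 1 lower. At 22 nt 19 of 57 were higher, and at 23 nt or more 17 of 41, with medians of 0.39, 0.31 and 0.30 from the shortest class to the longest. Arms from exons of host transcripts had 23 of 44 higher, those from introns 19 of 63 with 1 lower, and those with no annotated host 3 of 10, with median log2 odds ratios of 0.39, 0.28 and 0.48. Joined copies of an arm were classed by 1 locus. miR-2b-3p and miR-13b-3p thus counted under exons although each has another copy in an intron. A precursor in an exon of 1 host and an intron of another also counted under exons. The classes also differ in reads. Median reads were 7547 in 3p and 6665 in 5p arms, and 1695, 4556 and 8764 from the shortest length class to the longest. In the host classes they were 9152, 6329 and 6431, in the order given. The part of depth in the numbers called was not tested.

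The 45 higher arms mostly had more tailed reads at a common miRNA total, and not only fewer untailed ones. They were chosen by their tailed share, which itself favours a higher tailed level, so the overlapping arms are given beside them. The tailed level was above that of Nbr(wt) in 41 of the 45, with the untailed level also above in 30 and below in 11. Both levels were below in the other 4. The median log2 fold, NbrCTD over Nbr(wt), was 0.75 for tailed and 0.22 for untailed reads. In the 71 overlapping arms these medians were 0.33 and 0.22, and the tailed level was above that of Nbr(wt) in 56. With levels scaled to the median ratio of the arms, the tailed level was above in 38 of the 45 and the untailed level below in 23, with medians of 0.52 and -0.03. On that scale the tailed level was above in 48 of the 71 overlapping arms and the untailed level below in 36, with medians of 0.16 and -0.03.

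Arm abundance was compared next. The comparison took the 120 arms that averaged 100 reads or more, of which 86 were within 1.5-fold. The median log2 fold was 0.24, the level against which single folds are read here. In bulk RNA from a culture, less of a miRNA in every cell and fewer cells that make it cannot be told apart. A 2-fold difference with separate Poisson intervals was met by 7 arms (5.83%) higher and 1 arm (0.833%) lower with NbrCTD. The split was 3 higher and 1 lower with deposited RPM or with the median ratio as the scale.

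The highest fold was in the mirtron arm miR-1016-3p, from an intron of Opa1 (2R:14233130-14233187, minus strand, BDGP6). It stood at 161 miRNA RPM (155 to 168) with NbrCTD and 38.4 miRNA RPM (35.7 to 41.2) with Nbr(wt), a log2 fold of 2.04. Its tailed share overlapped, at 11.8% with NbrCTD and 12.6% with Nbr(wt). miR-308-5p, from an intron of RpS23, stood at 588 miRNA RPM with NbrCTD and 245 miRNA RPM with Nbr(wt) (log2 fold 1.26), and miR-998-5p at 377 miRNA RPM with NbrCTD and 158 miRNA RPM with Nbr(wt) (log2 fold 1.25). These 3 arms were called under every scaling tried, and so was the lower arm, miR-2c-3p, with a log2 fold of -1.69. With median-of-ratios scaling, miR-308-5p and miR-998-5p only just passed 2-fold, both at a log2 fold of 1.01, while miR-1016-3p stood at 1.80.

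The other 4 passed 2-fold by a narrow margin and lost the call under other scalings. miR-1008-3p stood at 799 miRNA RPM with NbrCTD and 374 miRNA RPM with Nbr(wt), and miR-12-3p at 210 miRNA RPM with NbrCTD and 102 miRNA RPM with Nbr(wt). miR-970-5p stood at 25.5 miRNA RPM with NbrCTD and 11.8 miRNA RPM with Nbr(wt), and miR-999-5p at 33.0 miRNA RPM with NbrCTD and 15.4 miRNA RPM with Nbr(wt). Passenger arms made up 5 of the 7 higher arms, beside 47 of the 117 arms measured for tails. Of these 5, only miR-308-5p and miR-998-5p kept the call under the other scalings. Of the 45 arms with a higher tailed share, 0 were called higher in abundance and 1, miR-2c-3p, was called lower. Over all 117 arms, 7 were called higher in abundance and 1 lower. Of those 7, 2 averaged 100 to 1000 reads and 5 averaged 1000 to 10000, while the 45 had a median of 62111 reads. The part of depth in the lack of shared calls was not tested. Over the 117 arms the log2 odds ratio of tails and the log2 fold of abundance had a Spearman rho of -0.11.

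**Figure D4:**
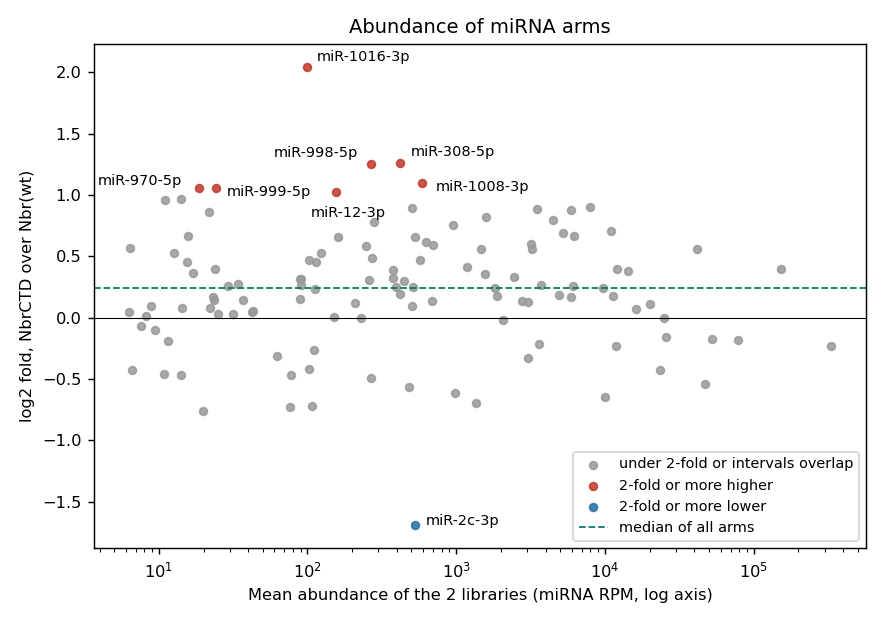
Log2 fold of arm abundance, NbrCTD over Nbr(wt), against mean abundance (miRNA RPM, log axis) for the 120 arms. The 7 arms past 2-fold higher and miR-2c-3p, past 2-fold lower, are named, and the dashed line is the median of 0.24.

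The balance of the duplex arms shifted modestly towards passengers. In 59 precursors with enough reads, the passenger-to-guide ratio was above that of Nbr(wt) in 40 and below it in 19, with a median fold of 1.18. The intervals of the passenger share lay apart in 29 precursors (49.2%) with NbrCTD higher and in 10 (16.9%) with NbrCTD lower. A 2-fold difference was reached by 5 precursors (8.47%), all higher with NbrCTD, and by 0 lower.

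miR-12, from an intron of Gmap (X:15509473-15509546, plus strand, BDGP6), had 27.0 passenger reads per 100 guide reads with NbrCTD and 8.61 with Nbr(wt), a 3.14-fold ratio. Passenger reads were 3035 with NbrCTD and 2012 with Nbr(wt), while guide reads were 11230 with NbrCTD and 23380 with Nbr(wt), so that the arms differed in opposite directions. miR-7 had 12.8 passenger reads per 100 guides with NbrCTD and 5.78 with Nbr(wt), and miR-308 had 20.4 with NbrCTD and 9.35 with Nbr(wt). miR-263a had 3.98 with NbrCTD and 1.62 with Nbr(wt), on 32 passenger reads with NbrCTD and 22 with Nbr(wt).

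For miR-2a-1 the ratio was 4.17 with NbrCTD and 2.06 with Nbr(wt). It is uncertain, since the deposited values of its guide are not whole reads and miR-2a-2 can share them. miR-34 stood just under the threshold at 22.5 passenger reads per 100 guides with NbrCTD and 11.3 with Nbr(wt), on 25392 passenger reads with NbrCTD and 27033 with Nbr(wt). The lowest fold, 0.611, was in miR-965, with 4.34 passenger reads per 100 guides with NbrCTD and 7.09 with Nbr(wt). In the 28 precursors whose guide had a higher tailed share, 17 ratios were higher and 7 lower by separate intervals of any size. In the 27 whose guide tails overlapped, 11 were higher and 3 lower, beside 29 higher and 10 lower over all 59 precursors. The median log2 fold of the ratio was 0.28 in the 28, 0.15 in the 27 and 0.24 over all 59. Among all measured arms, those with higher tails had a median of 62111 reads and those with overlapping tails 1886. The part of depth in these numbers of ratios called was not tested.

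**Figure D5:**
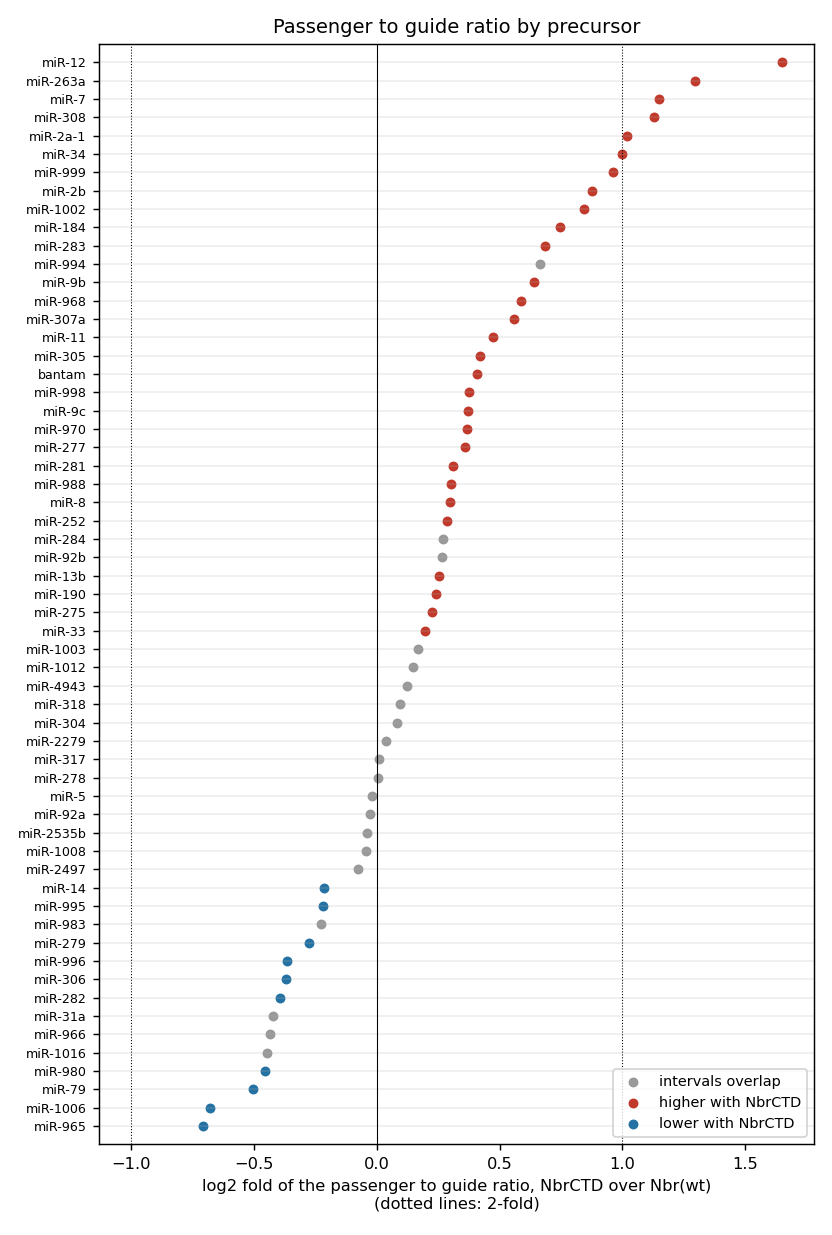
Log2 fold of the passenger-to-guide ratio, NbrCTD over Nbr(wt), in 59 precursors, 1 point each, coloured by whether the 95% intervals of the passenger share lie apart. Of these, 40 lie to the right of 0, and miR-12, miR-263a, miR-7, miR-308 and miR-2a-1 lie past the dotted 2-fold line.

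In arms with the same start listed in both libraries, the 5′ ends were nearly the same. Arms whose listed start differed, such as miR-2a-2-3p (described below), could not enter, so the comparison favours agreement. The listed 5′ isoform held a median of 96.6% with NbrCTD and 96.7% with Nbr(wt) of the reads over 117 arms, and 104 arms were within 2 percentage points. A difference of 5 points with separate intervals was met by 2 arms (1.71%), both lower with NbrCTD, and by 0 higher. miR-2a-1-3p had 64.2% with NbrCTD and 72.4% with Nbr(wt), and miR-995-5p 77.8% with NbrCTD and 82.8% with Nbr(wt). In both of these arms a larger share of the reads therefore started at another base with NbrCTD. The deposited values of miR-2a-1-3p are not whole reads, and the part of reads shared with miR-2a-2 in its isoform share was not tested. In miR-34-5p the listed isoform held 98.3% with NbrCTD and 98.6% with Nbr(wt), while its tailed share differed by 3.62 points.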

How the data were processed

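Per the labels' protocols, each library used 25 µg of total RNA as input, a size window of 18 to 30 nt and adapters with 4 random bases. HTSeq 0.9.1 and cutadapt 1.2.1 appear in the submitters' processing notes. No aligner or build of the table is given in the sources used here, and its own positions were not used. The authors deposited genome-matching and tailed reads in RPM per library, and the share of the listed 5′ isoform as a fraction. The deposited mark of guide and passenger was used only as an alternative.

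RPM values were divided by the commonest low value, the worth of 1 read. Of genome-matching values, 94.8% with NbrCTD and 95.7% with Nbr(wt) were then whole within 0.01. Shares have 95% exact intervals (SciPy 1.17.1, pandas 2.3.3, Python 3.11.15). Tails were called at 100 reads in both libraries, and odds ratios add 0.5 reads. Abundance used log2(miRNA RPM + 1), a mean of 100 reads, 2-fold and separate Poisson intervals. Isoform shares used 5 points. Passenger-to-guide ratios used 100 reads of both arms, 10 of the passenger and 2-fold. The code was tested on simulated data. Precursor positions come from the Ensembl BDGP6 annotation, in which 176 of 178 precursors matched by name. The arms named are the largest differences past each threshold, the 12 most abundant arms and members of the lists. Members and lists were chosen with earlier results of these data known, and miR-996-3p, miR-279-3p, miR-965 and miR-34 ratios were named as cluster members or after their values were seen. A split by the last base of the mature sequence was not run. The other libraries of the series were not used here.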

Additional observations from a re-analysis of the deposited data

Results flagged for a closer look

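The isoform of miR-2a-2-3p listed in the table differed between the libraries, so the arm is in none of the comparisons above. Of the 120 rows with reads in 1 of the 2 libraries, 60 in each, these were the only 2 with at least 100 reads, and each is listed here because it is a strong signal outside the comparison. With NbrCTD the listed isoform had 11972.5 RPM, and with Nbr(wt) the listed isoform had 16183.8 RPM. The first 7 bases, base 1 in lower case, place the NbrCTD isoform 2 bases further in, which changes the seed.
NbrCTD isoform: tCACAGC
Nbr(wt) isoform: tATCACA
The NbrCTD isoform held 51.9% (51.8 to 52.1) of the arm's reads, so the other starts together held 48.1%. The Nbr(wt) isoform held 59.8% (59.7 to 59.9), so the other starts held 40.2%. The tailed share was 3.39% for the NbrCTD isoform and 1.11% for the Nbr(wt) isoform, but these are different isoforms and are not compared. Reads shared between the miR-2a loci can fall to either copy, and their part in this was not tested.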

How the results depend on the processing

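No paired analysis was possible because each group held 1 library. The 45 arms with a higher tailed share became 25, and the 1 lower arm became 0, when a log2 odds ratio of 0.5 was also required, which cuts smaller differences by construction. Under the other settings the higher count ran from 38 with 99% intervals to 48 with rows not joined, and it was 39 without the miR-2, miR-13 and miR-6 arms, a setting chosen after seeing the data. The 7 arms higher in abundance became 3 with RPM as deposited, 3 with median-of-ratios scaling, 3 with a trimmed mean, 3 with the total taken without bantam-3p (chosen after seeing the data), 4 with a pseudocount of 10, 12 with no minimum and 27 at 1.5-fold, where 7 rather than 1 were lower. Ratios of any size with separate intervals numbered 29 higher and 10 lower, against 5 and 0 at 2-fold. Of 281 values for 37 named items, 26 moved by more than their interval and 0 reversed, but read minima, interval levels and size thresholds cannot move such a value, so these numbers do not measure stability. Depth limits the calls of arms under 1000 reads. Without replicates, variation between cultures or library preparations could not be measured.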

Other observations

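The most heavily tailed of the 117 measured arms was miR-2497-3p, which is in none of the lists and was picked out after its values were seen. It had 150 tailed of 218 reads with NbrCTD (68.8%, 62.2 to 74.9) and 146 tailed of 199 reads with Nbr(wt) (73.4%, 66.7 to 79.4). The intervals overlapped, and the share lay on the same side as that of miR-1008-3p, with the lower value with NbrCTD.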
